A study of Mus musculus with 18 samples.

Results

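The genes described here are 8 transcription regulators of the red cell and platelet lineages in mouse bone marrow, Gata1, Gata2, Zfpm1, Tal1, Lmo2, Klf1, Gfi1b and Nfe2. They were taken by symbol, and the choice was made with earlier results of these data known. All 8 were found among the 19780 genes of the LSK table and among the 18428 genes of the CMP table. RNA of sorted bone marrow cells of female mice was sequenced in 18 samples. LSK (lineage-negative, Sca-1+, c-Kit+ cells, the compartment of stem and early progenitor cells) gave 12 samples, in the groups F1-P, F1-L, B6-Y and also B6-O with 3 samples apiece. CMPs (common myeloid progenitors) gave 6 samples, 3 in F1-P and as many in F1-L. F1 mice are the NZB/W F1 hybrid, which develops lupus spontaneously. F1-P (prediseased) animals were 12 weeks old, and F1-L (lupus) animals were 28 to 36 weeks old and had proteinuria. B6-Y and B6-O are C57BL/6 mice of the same ages, without the disease. Since the F1-L animals were both older and diseased, age and disease cannot be told apart within this strain. The labels name no transgene and no drug treatment.

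GATA2 and GATA1 are zinc finger proteins that bind the same short DNA element. GATA2 is known for the maintenance of stem and progenitor cells and for mast cell and early megakaryocyte fates. GATA1 takes over its sites as cells commit to the erythroid and megakaryocytic lineages and represses Gata2 there, which is known as the GATA switch. Zfpm1 encodes FOG1, a cofactor of GATA1 in this switch. Tal1 and Lmo2 encode a helix-loop-helix protein and a LIM-domain adaptor that join GATA factors in one DNA-bound complex. Gfi1b encodes a transcriptional repressor that acts in both lineages. Klf1 encodes an activator of globin and red cell membrane genes, and Nfe2 a leucine zipper protein needed for the release of platelets.

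On GRCm38, the build of the files, the protein-coding genes of the GATA pair are Gata1 (chrX:7959260-7978071, minus strand) and Gata2 (chr6:88193891-88207032, plus strand). Their partners are Zfpm1 (chr8:122282141-122337251, plus strand), Tal1 (chr4:115056426-115071755, plus strand) and Lmo2 (chr2:103957986-103981878, plus strand). The lineage factors are Klf1 (chr8:84901928-84905291, plus strand), Gfi1b (chr2:28609450-28621982, minus strand) and Nfe2 (chr15:103248212-103258403, minus strand). Zfpm1 and Lmo2 lie across other annotated genes, with 0 shared exon bases.

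Promoter windows, from 250 bases before to 50 bases after an annotated start, were read from RefSeq (GRCm38.p6) to show where these genes carry the GATA element themselves. Of the 8 genes, 6 had a window, and Lmo2 and Nfe2 were not matched. The hexamer AGATAA was searched on both strands, as were the hexamer TGATAA, the hexamer AGATAG and the hexamer TGATAG. A match was found in 3 of the 8 windows, once each in Gfi1b (chr2:28621933-28622232, minus strand), Klf1 (chr8:84901732-84902031, plus strand) and Tal1 (chr4:115056176-115056475, plus strand). Among all 32851 windows of this length 29.8% hold such a match. None was found in the window of Gata1, in either window of Gata2, in that of Zfpm1 or in a further window of Tal1, which says only that these letters are not there. The window of Gata1 (chrX:7967861-7968160, minus strand) lies inside the span of the gene given above, so the outer start of that span was not searched. The 3 sequences are printed 5′ to 3′ on the strand of the gene, with the match in capitals. It begins 120 bases before the start of Gfi1b, 80 bases before that of Klf1 and 205 bases before that of Tal1.
Gfi1b: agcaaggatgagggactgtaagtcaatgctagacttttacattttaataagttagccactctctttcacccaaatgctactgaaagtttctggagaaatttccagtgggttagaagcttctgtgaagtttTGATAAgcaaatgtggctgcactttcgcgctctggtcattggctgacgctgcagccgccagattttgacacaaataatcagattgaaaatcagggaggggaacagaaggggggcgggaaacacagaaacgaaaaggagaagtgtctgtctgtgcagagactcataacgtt
Klf1: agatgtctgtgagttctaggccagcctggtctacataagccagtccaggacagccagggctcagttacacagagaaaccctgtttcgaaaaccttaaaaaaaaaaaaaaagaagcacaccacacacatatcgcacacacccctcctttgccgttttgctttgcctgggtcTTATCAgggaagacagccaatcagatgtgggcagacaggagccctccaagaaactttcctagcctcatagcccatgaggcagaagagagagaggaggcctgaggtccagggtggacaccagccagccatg
Tal1: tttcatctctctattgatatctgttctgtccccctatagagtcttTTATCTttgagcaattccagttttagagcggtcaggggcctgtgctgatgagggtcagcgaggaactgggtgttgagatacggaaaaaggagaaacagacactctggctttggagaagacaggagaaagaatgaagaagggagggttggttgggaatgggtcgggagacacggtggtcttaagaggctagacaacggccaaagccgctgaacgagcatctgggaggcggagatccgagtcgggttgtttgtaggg

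Levels are given as CPM, the reads of a gene brought to a common library size that the authors had also scaled between samples, and each LSK sample held 23772252 to 28493747 reads and each CMP sample 20001328 to 24761060. Gata1 was the thinnest member, with 106 to 276 reads in an F1-P LSK sample. The gate genes were as labelled in part. Kit, which encodes c-Kit, lay between 257 and 657 CPM in LSK and between 416 and 668 in CMPs, and Ly6a, which encodes Sca-1, between 35.5 and 879 in LSK and between 1.14 and 6.70 in CMPs, although the methods list Sca-1+ for the CMP gate. Several libraries stood apart. In LSK, F1-P replicate 3 had 1453 CPM of the beta-globin gene Hbb-bs against 13.6 and 17.2 in the other F1-P samples, and B6-O replicate 3 had 260.1 against 46.3 and 75.3, with 3506 CPM of the neutrophil gene S100a9 against 485 and 237. B6-Y replicate 2 had 83.9 CPM of Hbb-bs against 13.5 and 17.3, and 1564 of S100a9 against 139 and 149.7. Immunoglobulin genes held 16.8% to 36.5% of the reads of F1 LSK samples and 0.301% to 4.76% of those of C57BL/6 samples. In CMPs, F1-P replicates 2 and 3 had 1801 and 2329 CPM of S100a9, against 94.0 in F1-P replicate 1 and 17.9 to 118 in F1-L.

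The level per exon length, in CPM per kb, put the same gene first in every LSK group, while the order of the others varied. Lmo2 was highest in each of the 4, at 142 ± 24.5 (SD, n = 3) in F1-P, 188 ± 42.5 in F1-L, 252 ± 50.5 in B6-Y and 328 ± 8.49 in B6-O, and its samples did not overlap those of the next gene. Zfpm1 and Nfe2 followed, and their ranges overlapped except in B6-O, where Nfe2 was at 66.3 ± 10.6 and Zfpm1 at 52.5 ± 0.887. Gata2, Tal1 and Gfi1b lay in the middle, and the erythroid factors closed the order. Gata1 was lowest in F1-P (3.71 ± 1.57), F1-L (7.68 ± 0.104) and B6-Y (4.25 ± 1.16). In B6-O, Klf1 (6.27 ± 5.25) and Gata1 (6.40 ± 2.46) overlapped at the end of the order.

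In CMPs the order was another. Lmo2 was again at the top, with 168 ± 22.2 CPM per kb in F1-P and 202 ± 6.51 in F1-L, but its range overlapped that of Klf1, at 140 ± 66.7 and 165 ± 36.8. Zfpm1, Gfi1b, Gata1 and Tal1 came next, each overlapping its neighbour. Nfe2 and then Gata2 closed the order in both groups, apart from each other and from the rest, Gata2 at 11.6 ± 0.273 in F1-P and 25.6 ± 6.81 in F1-L. The LSK and CMP tables were normalised separately, so these levels are set side by side and not tested against each other.

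**Figure D1:**
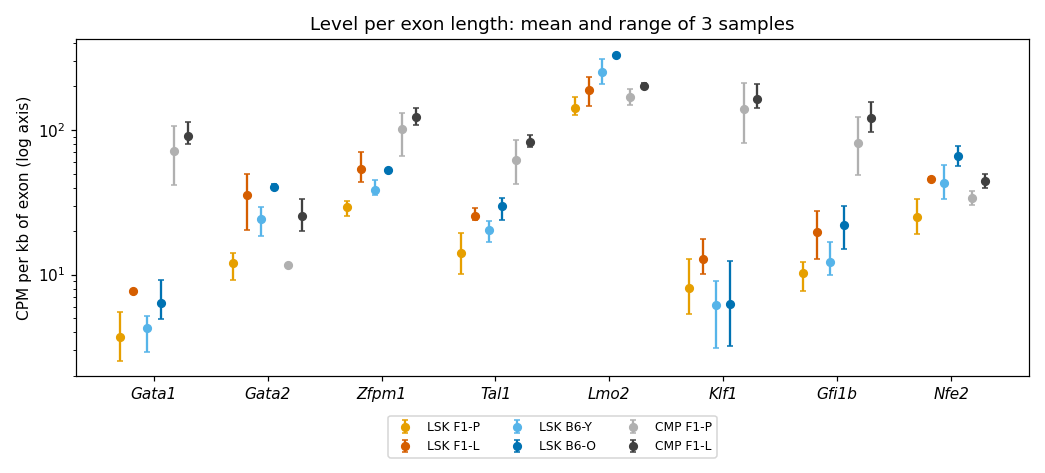
Mean level of each gene in CPM per kb of exon on a log axis, with the range of the 3 samples of a group as bars, coloured by group. Lmo2 is the highest gene in every group, Gata1 and Klf1 are at the bottom in LSK, and Gata2 is at the bottom in CMPs.

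The balance of Gata1 to Gata2 within a sample does not depend on how the sample was scaled, and it separated the cell types. In LSK, Gata2 exceeded Gata1 in 12 of 12 samples, with a log2 ratio of Gata1 to Gata2 in CPM between −4.24 and −2.52. In CMPs, Gata1 exceeded Gata2 in 6 of 6 samples, with a ratio between 0.15 and 2.06. Dividing by exon length adds 1.15 to every value and leaves each sample on its side of 0. The mean was −2.91 ± 0.36 (SD, n = 3) in LSK of F1-P, −3.27 ± 0.65 in F1-L, −3.67 ± 0.56 in B6-Y and −3.86 ± 0.55 in B6-O. It was 1.36 ± 0.70 in CMPs of F1-P and 0.70 ± 0.61 in those of F1-L. Within a cell type the groups overlapped: F1-L LSK ranged from −3.81 to −2.56 and F1-P LSK from −3.21 to −2.52, while F1-L CMPs ranged from 0.15 to 1.37 and F1-P CMPs from 0.66 to 2.06. The difference of the means, F1-L minus F1-P, was −0.36 in LSK and −0.66 in CMPs, of the order of the spread between samples in each case. Genes of the erythroid lineage, in a list followed below, summed to 5503 to 10712 CPM in CMP samples and to 347 to 3598 in LSK samples. The part of erythroid cells in the ratio was not tested.

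**Figure D2:**
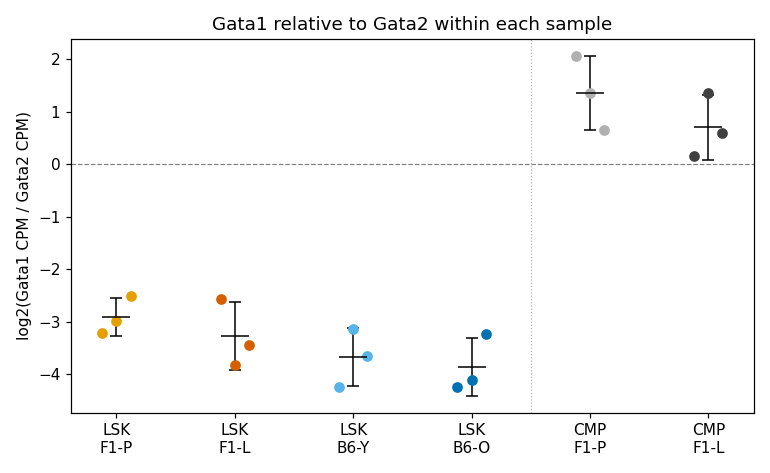
Log2 ratio of Gata1 CPM to Gata2 CPM in each sample (points) with the group mean and SD (bar); the dashed line marks equal CPM. The 12 LSK samples lie between −4.24 and −2.52 and the 6 CMP samples between 0.15 and 2.06.

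The comparison of F1-L with F1-P asked how lupus LSK differ from those of young animals of the same strain. All 8 genes had a higher mean in F1-L, and in 6 of them the 3 F1-L samples all lay above the 3 F1-P samples, as they did for 10.4% of the 14332 genes tested. None of the 8 passed the thresholds of limma, which ask for an adjusted p no higher than 0.05 and more than a 1.5-fold change and which 0.0279% of all genes passed. Of the 8, 6 had an unadjusted p under 0.05 with a higher level in F1-L, against 8.58% of all genes. Fold changes here are on the scale of log2(CPM + 1), which understates low genes. The median log2 fold change was 0.88 over the 8 genes and −0.01 over all genes.

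Gata2 had the widest gap, with 109.7, 267 and 202 CPM in F1-L and 70.0, 49.2 and 76.7 in F1-P. Every F1-L sample lay above every F1-P sample, though the F1-L samples themselves differed more than 2-fold. The log2 fold change was 1.48 (SE 0.33, limma adjusted p = 0.177). Gata1 was at 18.7, 19.0 and 18.5 CPM in F1-L and at 7.54, 6.19 and 13.4 in F1-P, so the F1-L samples were close together and F1-P replicate 3, the library with the most globin, came nearest to them. Its log2 fold change was 1.04 (SE 0.26, limma adjusted p = 0.196).

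Among the partners, Zfpm1 was at 167, 248 and 153 CPM in F1-L and at 112, 88.9 and 109 in F1-P, a log2 fold change of 0.84 (SE 0.20). Tal1 was at 104, 125 and 106 CPM in F1-L and at 56.9, 44.4 and 84.4 in F1-P, a log2 fold change of 0.89 (SE 0.22). Neither gene overlapped between the groups, and their limma adjusted p was 0.189 and 0.198. Lmo2 was at 318, 502 and 399 CPM in F1-L and at 279.8, 274 and 369 in F1-P, a log2 fold change of 0.39 (SE 0.20), and the groups overlapped.

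Of the lineage factors, Nfe2 was at 137, 142 and 133 CPM in F1-L and at 65.4, 57.4 and 100.2 in F1-P, with a log2 fold change of 0.92 (SE 0.20, limma adjusted p = 0.175). Gfi1b was at 34.6, 50.4 and 23.6 CPM in F1-L and at 22.4, 14.1 and 19.4 in F1-P, with a log2 fold change of 0.88 (SE 0.29, limma adjusted p = 0.284). Neither overlapped between the groups, but the F1-L sample lowest in Gfi1b was only just above F1-P. Klf1 was at 27.0, 16.4 and 15.5 CPM in F1-L and at 9.19, 8.17 and 19.5 in F1-P, where replicate 3 lay inside the F1-L range, and its log2 fold change was 0.69 (SE 0.35).

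**Figure D3:**
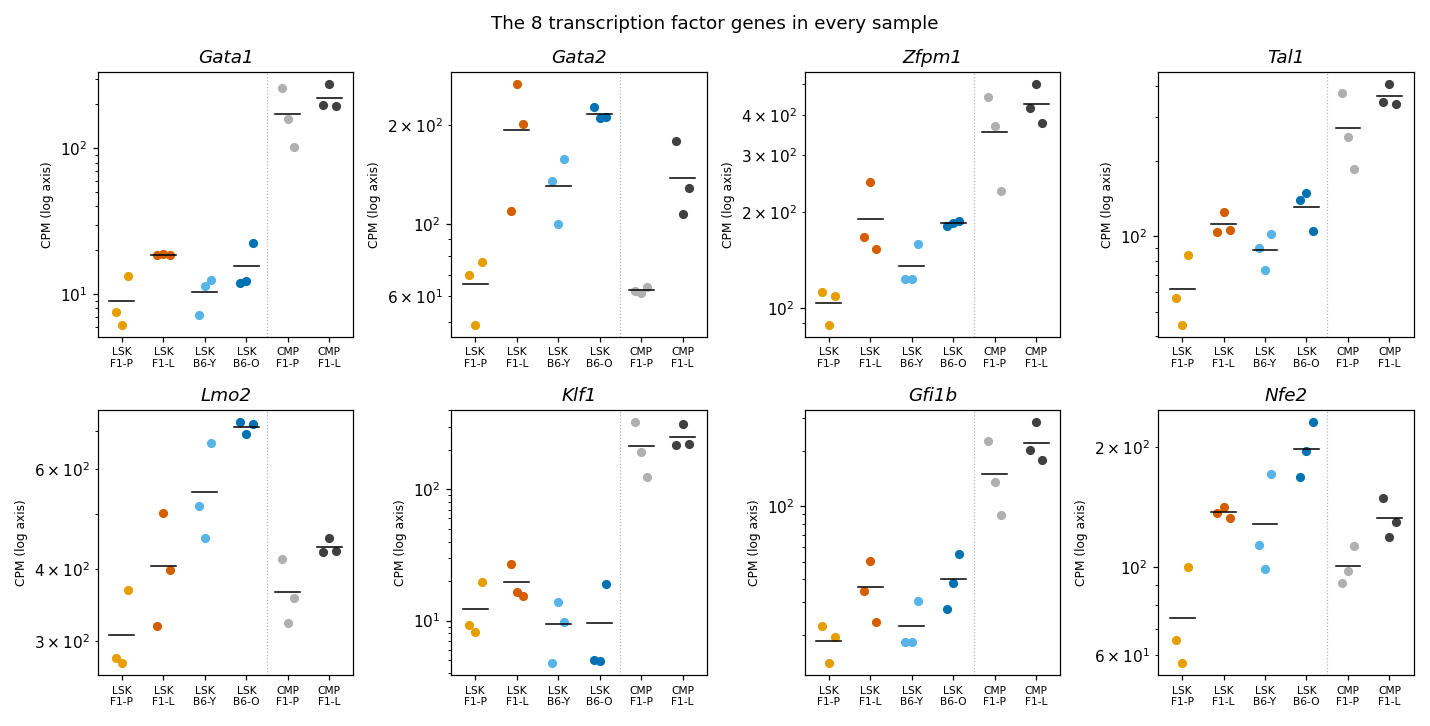
CPM of each of the 8 genes in every sample on a log axis of its own, by group, with the group mean as a line; the dotted line parts LSK from CMPs, which were normalised separately. In LSK, 6 of the 8 genes lie higher in all F1-L samples than in any F1-P sample; in CMPs, Gata2, Lmo2 and Nfe2 do.

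The number of calls depended on the test. The likelihood ratio test of edgeR, the test the methods name, was run on the whole reads recovered from the deposited values. It called 5 of the 8 genes higher in F1-L, Gata1, Gata2, Zfpm1, Tal1 and Nfe2, where it called 3.45% of all genes higher. Its adjusted p was 0.0011 for Gata2 and between 0.011 and 0.0296 for the other 4. edgeR's quasi-likelihood test on the same reads called none of the 8, with a lowest adjusted p of 0.165, and called 0.0209% of all genes.

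The summed CPM of some marker lists also differed between F1-L and F1-P, while that of others overlapped. The summed CPM of 11 mature neutrophil genes was 1989 to 12315 in F1-L and 299.8 to 1278 in F1-P, all 11 with an unadjusted p under 0.05 in limma, and that of 8 plasma cell genes was 9742 to 13035 in F1-L and 14635 to 37905 in F1-P. The 9 measured mast cell and basophil genes, which belong to a lineage where Gata2 is also active, summed to 34.7 to 103 CPM in F1-L and to 19.5 to 23.4 in F1-P. The 7 B cell genes summed to 157 to 200.2 CPM in F1-L and to 299 to 430 in F1-P. The 8 stem cell genes summed to 466 to 684 CPM in F1-L and to 397 to 516 in F1-P, and the 6 stromal genes to 14.8 to 46.3 and 7.13 to 55.1. No measured gene of these lists was at 0 in all samples of a group. The part of these cells in the differences was not tested, and in sorted bulk samples fewer cells of a type and less RNA per cell cannot be told apart. Kit was at 340 to 442 CPM in F1-L and 257 to 373 in F1-P. Divided by Kit in the same sample, a ratio chosen after the values were seen, Gata2 was at 0.323, 0.604 and 0.523 in F1-L and at 0.273, 0.176 and 0.205 in F1-P, again without overlap. By this ratio 4 of the 8 genes lay higher in all F1-L samples, against 3.70% of all genes, and Lmo2 differed by 0.02 on the log2 scale. With F1-P replicates 2 and 3, the libraries richest in immunoglobulin reads, left out, the log2 fold changes of the 8 genes lay between 0.51 and 1.36 and 0 passed, in a fit that assumes the lone F1-P sample varies like the F1-L samples.

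Megakaryocyte and erythroid genes were followed in 2 lists of 20 genes. Of the megakaryocyte list, 15 genes passed the filter on low values in F1-L against F1-P. Of these, 0 passed the thresholds of limma and 15 had a positive log2 fold change, from 0.59 to 2.24 with a median of 1.15. The genes under the filter are not in this count, and a gene low in F1-P could pass the filter through F1-L alone. Each of the 15 also reached 1 CPM in F1-P samples, where Pf4 was lowest, at 1.24, 0.934 and 5.64 CPM. Of the erythroid list, 18 genes were tested and 0 passed, with a median log2 fold change of 0.80 and a range of −0.08 to 1.92. In the globin-rich F1-P replicate 3 the erythroid genes summed to 3598 CPM, against 347 and 391 in the other F1-P samples and 893 to 1099 in F1-L. Of 20 partner and related factors, among them Runx1, Fli1 and Spi1, 19 were tested and 0 passed the thresholds of limma, with a median log2 fold change of 0.04. An unadjusted p under 0.05 in limma was reached by 2 of them as higher and 3 as lower in F1-L. The likelihood ratio test called 1 higher, Spi1 (adjusted p = 0.020), and 0 lower. Spi1 stood at 132, 80.7 and 96.2 CPM in F1-L against 63.1, 52.1 and 64.6 in F1-P, without overlap. In limma this was a log2 difference of 0.75 (SE 0.19, adjusted p = 0.198).

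In C57BL/6 mice, where B6-O were compared with B6-Y to show what age does without lupus, the members were also higher in the old animals, Klf1 excepted. Gata2 was at 228, 210.0 and 212 CPM in B6-O and at 135, 99.9 and 157 in B6-Y, with no overlap, and its log2 fold change was 0.75 (SE 0.19, limma adjusted p = 0.354). Zfpm1, Tal1 and Lmo2 did not overlap either, with log2 fold changes of 0.45, 0.56 and 0.40. Groups did not overlap, with the old animals higher, for these 4 of the 8 genes and for 5.69% of the 14005 tested. Of the 8 genes, 5 had an unadjusted p under 0.05 with a higher level in B6-O, against 3.25% of all genes, and none passed the thresholds of limma, which 0% of all genes passed. DESeq2 called 1 of the 8 higher, Gata2 (adjusted p = 0.0491), and 0.735% of all genes, and the likelihood ratio test called 0 of the 8 and 0.450% of all genes higher. Divided by Kit, 0 of the 8 genes lay higher in all B6-O samples, Gata2 included (difference 0.58 on the log2 scale), against 1.51% of all genes. Gata1 overlapped, at 12.04, 12.3 and 22.5 CPM in B6-O and 7.16, 11.4 and 12.5 in B6-Y. Klf1 was at 5.01, 4.89 and 18.9 CPM in B6-O and at 4.74, 13.8 and 9.77 in B6-Y, and the highest value of each group came from the library of that group with the most globin, B6-O replicate 3 and B6-Y replicate 2. Its log2 fold change was −0.13 (SE 0.54) and took the other sign without B6-Y replicate 2, B6-O replicate 1 or B6-O replicate 2 (0.16 to 0.18). Of the lists, 16 megakaryocyte, 19 erythroid and 19 partner genes were tested and 0 passed, with median log2 fold changes of 0.74, 0.33 and −0.08. B6-O replicate 3, with the most neutrophil and globin reads, also had the least Kit, 296 CPM against 650.0 and 657.

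The age difference was then compared between the strains as one contrast over the 12 LSK samples, F1-L minus F1-P less B6-O minus B6-Y. It was 0.73 for Gata2 on the log2 scale (SE 0.41, unadjusted p = 0.0975 in limma), 0.52 for Gata1 (SE 0.43) and 0.82 for Klf1 (SE 0.71). For Lmo2 it was −0.01 (SE 0.29) and for Gfi1b 0.08 (SE 0.45), and both took the other sign under some of the alternatives. Of the 8 genes, 0 passed the thresholds of limma and 0 had an unadjusted p under 0.05, against 0% and 3.92% of the 15084 genes tested. A difference between the strains was thus not detected for any member, and intervals of this width do not show that the strains were alike.

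**Figure D4:**
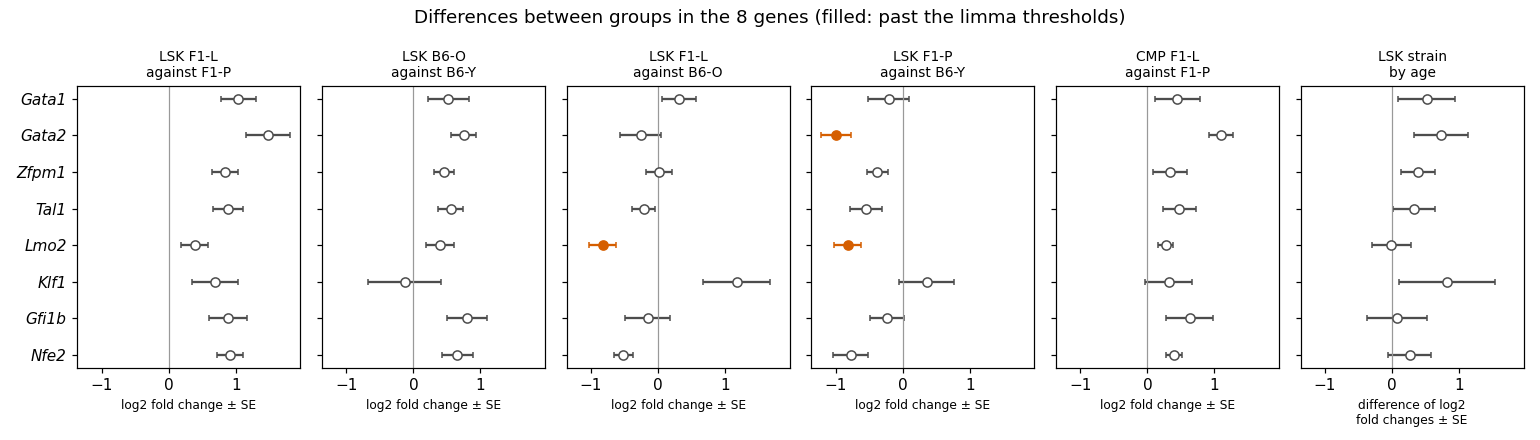
Log2 fold change with its standard error for the 8 genes in 5 comparisons, and the difference of the age changes between strains in the last panel; filled points passed the thresholds of limma. The filled points are Lmo2 in F1-L against B6-O and Gata2 and Lmo2 in F1-P against B6-Y, all below 0.

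Between strains at the same age, the adaptor Lmo2 was lower in F1 mice at both ages. Each strain comparison uses the same F1-P or F1-L samples as the comparison within the F1 strain, so their values are not independent of it. Young F1-P LSK had 279.8, 274 and 369 CPM of Lmo2 and B6-Y LSK 517, 453 and 667, a log2 fold change of −0.82 (SE 0.20, limma adjusted p = 0.0276). Gata2 was also lower in F1-P, at 70.0, 49.2 and 76.7 CPM against 135, 99.9 and 157 in B6-Y (log2 fold change −0.99, SE 0.22, limma adjusted p = 0.019). These 2 of the 8 genes fell past the thresholds, as did 6.18% of the 14380 genes tested, and 0 of the 8 rose, against 10% of all genes. Zfpm1 did not overlap either, so that 3 of the 8 genes lay lower in all F1-P samples, against 18.1% of all genes. Gata1 was at 7.54, 6.19 and 13.4 CPM in F1-P and 7.16, 11.4 and 12.5 in B6-Y, and the groups overlapped (log2 fold change −0.21, SE 0.31). Both calls were lost with F1-P replicates 2 and 3 left out (Gata2 −0.87, adjusted p = 0.249; Lmo2 −0.94, adjusted p = 0.234). The Gata2 call was also lost without F1-P replicate 2, B6-Y replicate 1 or B6-Y replicate 3, with log2 fold changes of −0.80, −0.96 and −0.85, and the Lmo2 call without these or F1-P replicate 1, with −0.74, −0.85, −0.67 and −0.76. Nfe2 was called without F1-P replicate 3, at −1.01.

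In the old animals, Lmo2 was at 318, 502 and 399 CPM in F1-L and at 724, 689.5 and 718 in B6-O (log2 fold change −0.83, SE 0.21, limma adjusted p = 0.0436). It was 1 of the 8 genes to fall past the thresholds, against 3.75% of the 14381 tested, and 0 of the 8 rose, against 7.84%. The adjusted p was close to 0.05, and the call was lost in 9 of the alternatives, 5 of them the leaving out of a sample, with adjusted p between 0.0503 and 0.173. Nfe2 also lay lower in all F1-L samples, at 137, 142 and 133 CPM against 168, 195 and 231 (log2 fold change −0.52, SE 0.15, limma adjusted p = 0.0674). These were 2 of the 8 genes without overlap, against 20% of all genes. Gata2 no longer stood apart, with 109.7, 267 and 202 CPM in F1-L around the 228, 210.0 and 212 of B6-O (log2 fold change −0.26, SE 0.30). Without B6-O replicate 3, which stands apart in neutrophil and globin genes, Gata1 and Klf1 passed the thresholds as higher in F1-L. Their log2 fold changes were 0.59 (limma adjusted p = 0.025) and 1.75 (limma adjusted p = 0.0067), against 0.31 and 1.17 with that sample. In that fit 1 of the 8 genes was called lower, and of all 14116 genes tested 1585 were called higher and 700 lower.

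The strain comparisons were accompanied by large differences in composition. The 8 plasma cell genes summed to 14635 to 37905 CPM in F1-P and 788 to 1987 in B6-Y, and to 9742 to 13035 in F1-L and 253 to 2529 in B6-O, and 8 and 7 of the 8 rose past the thresholds in the F1 mice. Kit was at 257 to 373 CPM in F1-P and 410.2 to 481 in B6-Y, and at 340 to 442 in F1-L and 296 to 657 in B6-O. Divided by Kit, none of the 8 genes lay apart between the strains at either age, against 45.8% of all genes in the young and 20.7% in the old animals in either direction, and the difference of Gata2 between F1-P and B6-Y went from −0.99 to −0.43 and that of Lmo2 from −0.82 to −0.25 on the log2 scale. The part of other cells in these differences was not tested. The reads of the 2 strains were aligned to the same C57BL/6 reference, and its effect on single genes was not tested.

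Of the megakaryocyte list, 4 of 15 tested genes fell and 1 rose in F1-P against B6-Y, and 1 of 18 fell and 2 rose in F1-L against B6-O. For this and the other lists, the counts over all genes were 889 of 14380 lower and 1442 higher in F1-P against B6-Y. In F1-L against B6-O they were 539 of 14381 lower and 1128 higher. Itga2b, the integrin subunit CD41 of early megakaryocytic cells, was at 17.5 ± 4.33 CPM in F1-P and at 87.5 ± 17.6 in B6-Y (log2 fold change −2.26, SE 0.22). Selp, the platelet adhesion protein P-selectin, was at 2.68 ± 0.754 CPM in F1-P and at 16.3 ± 7.42 in B6-Y (log2 fold change −2.16, SE 0.34), and the platelet glycoprotein genes Gp5 and Gp9 fell by 0.87 and 0.69 on the log2 scale. In F1-L against B6-O, Itga2b was again lower (log2 fold change −1.23, SE 0.26), whereas the thrombin receptor gene F2r and the integrin gene Itgb3 were higher (1.70, SE 0.42, and 0.69, SE 0.18). Of the erythroid list, 5 of 19 tested genes rose and 2 fell in F1-L against B6-O. Among those that rose were Sptb, which encodes a protein of the red cell membrane skeleton (log2 fold change 2.10, SE 0.54), and Car1, a carbonic anhydrase gene (1.93, SE 0.42). The alpha-globin gene Hba-a2 was at most at 0.486 CPM in F1 LSK samples and fell by 4.47 on this scale. Reads that match both Hba-a2 and its near-identical copy Hba-a1 cannot be assigned to either, so its value is uncertain, and the cause of the fall was not tested. Hba-a2 also passed the filter on low values through the C57BL/6 samples alone, so only a fall in the F1 mice could be found for it. In F1-P against B6-Y, 0 of 19 erythroid genes rose and 2 fell, Hba-a2 and Tfr2, a transferrin receptor gene (log2 fold change −1.42, SE 0.19). Of the partner list, Spi1, the myeloid factor PU.1 that opposes GATA1, fell in F1-P (log2 fold change −0.93, SE 0.13) and Gata3, the lymphoid GATA factor, rose (1.22, SE 0.28), out of 19 tested, and 0 passed in F1-L against B6-O. limma adjusted p of these named genes lay between 0.000458 and 0.0498.

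**Figure D5:**
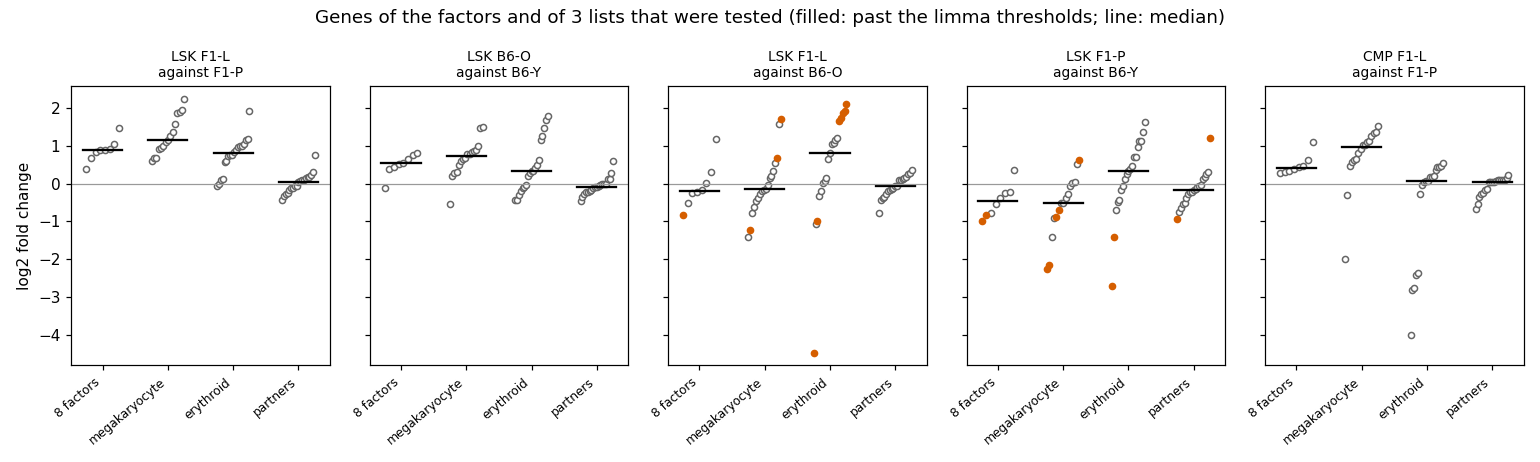
Log2 fold changes of the 8 factors and of the tested genes of 3 lists in 5 comparisons; each point is a gene, filled where it passed the thresholds of limma, and the line is the median. The factors and the megakaryocyte list have medians of 0.88 and 1.15 in LSK of F1-L against F1-P, and of 0.42 and 0.96 in CMPs.

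In CMPs, F1-L against F1-P, Gata2 stood out. It was at 179, 107 and 129 CPM in F1-L and at 62.2, 61.5 and 64.4 in F1-P, so all F1-L samples lay above the closely spaced F1-P samples, with a log2 fold change of 1.10 (SE 0.18). Its unadjusted p of 0.000782 in limma gave an adjusted p of 0.352 over the 12926 genes tested. None of the 8 genes passed the thresholds of limma, which 0.00774% of all genes passed, and 3 had an unadjusted p under 0.05 with a higher level in F1-L, against 4.55% of all genes. The likelihood ratio test called 1 of the 8, Gata2 (adjusted p = 0.000194), where it called 0.263% of all genes higher. edgeR's quasi-likelihood test called none of the 8, with a lowest adjusted p of 0.297, and called 0.00774% of all genes.

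Lmo2 and Nfe2 also lay higher in all F1-L CMP samples, as did, with Gata2, 3 of the 8 genes and 9.45% of all genes. Lmo2 was at 429, 455 and 431 CPM against 417, 322 and 356 (log2 fold change 0.27, SE 0.11), and Nfe2 at 149, 119 and 130 against 91.1, 97.7 and 113 (0.39, SE 0.12). The other 5 genes overlapped. Gata1 was at 199, 277 and 194 CPM in F1-L and at 260.2, 158 and 101 in F1-P, a log2 fold change of 0.45 (SE 0.34). Klf1 was at 219, 317 and 221 CPM in F1-L and at 326, 192 and 125 in F1-P, and Gfi1b at 201, 285 and 177 in F1-L and at 225, 135 and 89.5 in F1-P. Zfpm1 was at 421, 501 and 379 CPM in F1-L and at 456, 371 and 233 in F1-P, and Tal1 at 343, 406 and 336 in F1-L and at 374, 249 and 186 in F1-P. In these 5 genes F1-P replicate 1 was within or above the F1-L range, and the low values came from F1-P replicates 2 and 3.

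Those 2 libraries also had the highest sums of genes of other cell types. The 11 neutrophil genes summed to 6422 and 8412 CPM in them, against 311 in F1-P replicate 1 and 65.9 to 435 in F1-L, and all 11 were lower in F1-L with an unadjusted p under 0.05 in limma. The 7 B cell genes summed to 161 and 172 CPM in them, against 46.3 in F1-P replicate 1 and 10.9 to 27.2 in F1-L, and the 8 plasma cell genes to 229 and 309 CPM, against 90.2 and 65.3 to 109.9. The 7 measured mast cell and basophil genes summed to 86.9 and 99.8 CPM in them, against 20.8 in F1-P replicate 1 and 21.1 to 66.0 in F1-L. No measured gene of these lists was at 0 in all samples of a group. The part of other cells in the differences between the CMP groups was not tested. With both F1-P libraries left out, Gata2 kept its size, with a log2 fold change of 1.11, and Nfe2 had 0.53. Gata1, Klf1, Gfi1b, Zfpm1 and Tal1 then had log2 fold changes of −0.24, −0.39, −0.05, −0.08 and −0.05. That fit rests on 1 F1-P sample, assumed to vary like the F1-L samples, and 0 of the 8 genes passed. Kit was at 536 to 668 CPM in F1-L and at 416 to 475 in F1-P. Divided by Kit, Gata2 was at 0.268, 0.191 and 0.240 in F1-L and 0.149, 0.129 and 0.143 in F1-P and was the 1 gene of the 8 that lay higher in all F1-L samples, against 0.681% of all genes.

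In CMPs the erythroid list and the megakaryocyte list differed from each other, and the megakaryocyte list had the direction of the factors. Of 18 tested erythroid genes 0 passed the thresholds of limma, with a median log2 fold change of 0.07. The 5 with an unadjusted p under 0.05 were all lower in F1-L, against 5.25% of all genes, and the likelihood ratio test called 5 genes of the list lower, where it called 2.12% of all genes lower. These 5, named after their values were seen, were the globin genes Hba-a1, Hbb-bs and Hbb-bt, the haem synthesis gene Alas2 and the anion exchanger gene Slc4a1. Hbb-bs was at 10.8, 45.3 and 30.4 CPM in F1-L and at 79.5, 150.2 and 491 in F1-P. Of 16 tested megakaryocyte genes 0 passed, 14 had a positive log2 fold change and the median was 0.96. The 19 measured genes of this list summed to 196, 760 and 371 CPM in F1-P replicates 1 to 3. In F1-L they summed to 802, 552 and 444 CPM, so the sums overlapped. Of 19 partner and related factors 0 passed, with a median of 0.05. Of the marker lists, 1 gene passed, the collagen gene Col1a1, which fell to 0.0807 ± 0.0255 CPM in F1-L and was at 7.91 ± 1.12 CPM in F1-P (limma adjusted p = 0.0078). It passed the filter on low values through F1-P alone, so only a fall in F1-L could be found for it.

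The genes whose pattern was most like that of Gata1 and Gata2 were sought among genes with a mean of at least 5 CPM, by Pearson's r of log2(CPM + 1). The values describe these samples, which share groups, strains and libraries, and carry no p. Over the 12 LSK samples, among 11108 genes, Lpcat1, Samd14, Slc41a3, Ralb and Cdc42ep4 were nearest to Gata1, with r from 0.92 to 0.94. Ndrg2, Pafah2, Gp5, Fkbp9 and Def8 were nearest to Gata2, with r from 0.96 to 0.97, and Gp5 is a gene of the megakaryocyte list. Over the 6 CMP samples, among 10317 genes, Kpna6, Kbtbd3, Prkaa1, Ak3 and Ndufaf1 were nearest to Gata1 and Peg12, Zfp985, Rab38, Zfp574 and Gm19221 to Gata2, with r from 0.99 to 1.00, as is easily reached over so few samples. Among the members themselves, the r of the 28 pairs lay between −0.34 (Lmo2 and Klf1) and 0.92 (Gata2 and Zfpm1) in LSK, with 25 positive, and between −0.15 (Klf1 and Nfe2) and 0.99 (Gata1 and Klf1) in CMPs, with 26 positive. Gata1 and Gata2 had an r of 0.65 in LSK and of 0.33 in CMPs.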

How the data were processed

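RNA of sorted LSK (12 samples) and CMPs (6 samples) was sequenced as single-end reads from TruSeq libraries, which do not mark strand. The authors used STAR 2.6 with mm10 (GRCm38), HTSeq for reads per gene and edgeR. The deposited values are a signal, the CPM of a library size that the authors also scaled by a normalisation factor, and LSK columns therefore add up to between 832403 and 1387186, CMP columns to between 967456 and 1033223. Plain CPM had been assumed when the tests were chosen. The test stayed limma. In 100% of the values a whole number of reads was recovered, within 0.01 reads, and count tests were run on these reads as alternatives. All columns were used. The LSK and CMP tables were scaled separately and are tested only within each.

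Genes were named with GENCODE M21 (19770 of 19780 and 18421 of 18428 IDs matched). No exon of another annotated gene overlaps the exons of a member. Promoters are from RefSeq. The groups are those of the sample titles, and the ages come from the study's methods. The labels do not say whether samples are separate mice or pools, so p-values measure the spread between these samples.

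In each comparison, genes that reached 1 CPM in 3 or more samples were tested with limma 3.58.1 (lmFit, eBayes with trend) on log2(CPM + 1) in R 4.3.3, with Benjamini-Hochberg adjustment over all genes tested. Calls needed an adjusted p no higher than 0.05 and more than a 1.5-fold change. Alternatives were pseudocounts of 0.1 and 0.5, the filter dropped or set to a mean of 5 CPM, other scalings, a replicate block, a robust fit, no fold minimum, edgeR 4.0.16 (quasi-likelihood and likelihood ratio), DESeq2 1.42.0, all LSK samples in 1 fit and each sample left out. Leaving out F1-P replicates 2 and 3 was chosen after seeing the data, as was division by Kit. The scripts were tested on simulated data. No pair of samples in a group agreed within sampling noise (chi-square per degree of freedom 10.9 to 252 over 18 pairs).

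The members and lists were chosen with earlier results of these data known. The text names the 8 members, at most 4 genes per list and comparison past the thresholds (1 of them is not reported here), and the 5 genes most like Gata1 and Gata2.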

Additional observations from a re-analysis of the deposited data

How the results depend on the processing

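Of 688 log2 fold changes of the 8 genes under other settings, 652 kept direction and call; of 336 with 1 sample left out, 299 did. The cause was not tested for those that did not. For LSK of F1-L against F1-P, the count of the 8 genes past the thresholds went from 0 to 5 with the likelihood ratio test, to 6 with DESeq2 and to between 0 and 1 with a sample left out (1 without F1-P replicate 3, which is Nfe2). For B6-O against B6-Y it went from 0 to 1 with DESeq2 (Gata2). For F1-L against B6-O it went from 1 to 0 with no filter, with the total without immunoglobulin genes, with the replicate block and with the quasi-likelihood test, and to between 0 and 3 with a sample left out. For F1-P against B6-Y it went from 2 to 0 with F1-P replicates 2 and 3 left out, to between 0 and 3 with a sample left out, and to 3 with DESeq2 and with all 12 LSK samples in 1 fit (Nfe2 in addition). For CMPs it went from 0 to 1 with the likelihood ratio test and with DESeq2. Over all genes, LSK F1-L against F1-P had 4 calls with limma, 657 with the likelihood ratio test, 734 with DESeq2, 26 with all LSK samples in 1 fit and 0 with the replicate block or with F1-P replicates 2 and 3 left out. B6-O against B6-Y had 0 calls with limma, 114 and 207 with the likelihood ratio test and DESeq2, and the CMP comparison 1, 308 and 351. F1-L against B6-O had 1667 calls, and 978 with a mean of 5 CPM, and F1-P against B6-Y 2331, and 271 with F1-P replicates 2 and 3 left out. The contrast of strain by age had 0, 10 and 29. F1-P against B6-Y had 2816 of 14380 genes called with DESeq2 and 2440 of 15084 with all LSK samples in 1 fit. With 1 sample left out, the calls ranged from 927 to 2229 in F1-P against B6-Y and from 448 to 2285 in F1-L against B6-O. In LSK of F1-L against F1-P they ranged from 0 to 25. Fewer samples entered the fits with samples left out. Where an arm had 1 sample, it was assumed to vary like the other groups.

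Some log2 fold changes took the other sign, none of them past the thresholds. In F1-L against B6-O, Zfpm1 became −0.038 with TMM recomputed, and with a sample left out Zfpm1 ranged from −0.20 to 0.14, Gata2 from −0.54 to 0.10 and Gfi1b from −0.42 to 0.11. With F1-P replicates 2 and 3 left out, Gfi1b became 0.041 against B6-Y, and in CMPs Gata1, Zfpm1, Tal1, Klf1 and Gfi1b went from 0.45, 0.34, 0.48, 0.32 and 0.63 to −0.24, −0.084, −0.053, −0.39 and −0.054, respectively. With a sample left out, Klf1 ranged from −0.71 to 0.18 in B6-O against B6-Y, from −0.023 to 0.66 in F1-P against B6-Y and from −0.0094 to 0.68 in CMPs, and Gfi1b from −0.37 to 0.0015 in F1-P against B6-Y. In the contrast of strain by age, Lmo2 became 0.068 with the total without immunoglobulin genes, 0.021 with each edgeR test, 0.029 with DESeq2 and 0.11 with F1-P replicates 2 and 3 left out, where Gfi1b became −0.20. With a sample left out they ranged from −0.17 to 0.15 and from −0.19 to 0.34.

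In no comparison did the deviations of all same-numbered samples correlate above 0.1. These few values cannot decide whether the replicate numbers pair the samples. The correlations were 0.33, 0.32 and 0.068 in F1-P against B6-Y and 0.47, −0.36 and 0.32 in B6-O against B6-Y. They lay between −0.45 and 0.62 in CMPs. Over all genes, F1-P against B6-Y had 2787 calls with the replicate block and 2331 without it. With the replicate block, 3 of the 8 genes passed in F1-P against B6-Y (Nfe2 in addition), 0 in F1-L against B6-O and 0 in the others. The differences of the log2 ratio of Gata1 to Gata2 kept their sign with a pseudocount of 1. With a sample left out, F1-L minus F1-P ranged from −0.72 to −0.094 in LSK and from −1.01 to −0.31 in CMPs. The difference of B6-O and B6-Y was −0.19 and ranged from −0.50 to 0.087, so it took the other sign. Depth limits Gata1 and Klf1 most, at 106 and 140 reads in their thinnest sample.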

Other observations

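Gata3, the GATA factor of T and innate lymphoid cells, was not among the 8 genes and followed another order. In LSK it was at 50.5, 61.1 and 45.4 CPM in F1-P, at 43.7, 31.0 and 40.1 in F1-L, at 13.4, 28.4 and 26.8 in B6-Y and at 22.1, 22.5 and 72.5 in B6-O. All F1-P samples lay above all F1-L and all B6-Y samples, 2 comparisons that share the F1-P samples. In CMPs it was at 1.30 to 2.64 CPM in every sample. Runx1, a factor of blood stem cells and megakaryocytes, was at 157, 99.5 and 101 CPM in F1-P LSK and at 132, 133 and 130.4 in F1-L, and the groups overlapped.

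Of 8 stem cell genes, 2 fell and 0 rose past the thresholds between the strains at each age. Over all genes, 889 of 14380 fell and 1442 rose in F1-P against B6-Y. In F1-L against B6-O, 539 of 14381 fell and 1128 rose. Hlf and Meis1, factors of long-term stem cells, fell in F1-P against B6-Y (log2 fold changes −0.998 and −1.12) and in F1-L against B6-O (−1.20 and −0.96). Mllt3 lay higher in all F1-P samples, at 63.5, 69.9 and 66.9 CPM against 42.4, 50.6 and 51.9 in B6-Y, under the fold change minimum (log2 fold change 0.46). Of the gate genes, Ly6a rose by 3.53 and 2.68 and Cd34 fell by 1.28 and 1.37 on the log2 scale in the same comparisons.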
